A study of Homo sapiens with 4 samples.

Results

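The FGF gene set held 6 fibroblast growth factor (FGF) genes, FGF2, FGF4, FGF8, FGF11, FGF12 and FGF13, and the 4 FGF receptor genes FGFR1 to FGFR4. They were taken by symbol from the authors' table of normalised read counts, and all 10 were found among its 17472 listed genes. Poly(A) RNA came from H1, a long-used human embryonic stem cell line, in 2 groups of 2 libraries. The MEK5DD libraries came from 1 H1 line transduced with a lentivirus carrying MEK5DD, a MAP2K5 with residues changed to aspartate, and selected with puromycin. The WT libraries came from unmodified H1 cells, and both groups grew in E8, a defined medium that itself contains FGF2 and TGF-beta. No library of cells given lentivirus and puromycin without MEK5DD was analysed here, so delivery, selection and the single line cannot be told apart from MEK5DD.

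Secreted FGFs bind FGF receptors at the cell surface together with heparan sulfate, and the paired receptors pass the signal through FRS2 and GRB2 to RAS and the ERK kinases. Cultured human pluripotent stem cells depend on FGF2 to stay undifferentiated, while FGF4 and FGF8 are known from the early embryo, FGF4 in pluripotent cells and FGF8 in gastrulation and brain patterning. FGF11, FGF12 and FGF13 belong to a subfamily that stays inside the cell and is best known for binding voltage-gated sodium channels. MAP2K5 (MEK5) acts in a separate chain, upstream of ERK5. RNA counts measure the cells' own transcripts, not FGF protein or the FGF2 of the medium.

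The libraries held 17539654 and 15756339 recovered reads in MEK5DD cells and 17628945 and 14908486 in WT cells. MAP2K5, the gene introduced, had normalised read counts of 3382 and 3558 in MEK5DD cells, against 344 and 315 in WT cells. The chi-square per degree of freedom between recovered reads was 6.09 for the MEK5DD pair, 1.87 for the WT pair and 12.6 to 16.4 across the groups. The summed count of 10 pluripotency markers was 148436 and 141118 in MEK5DD cells and 147859 and 145526 in WT cells, and all of these markers were listed. Of these 10, NANOG was called higher, at 5655 and 5451 in MEK5DD cells, against 4682 and 4576 in WT cells (adjusted p = 0.0117 from limma). SOX2 was called lower, at 4030 and 3942 against 4643 and 4515 (adjusted p = 0.0437 from limma). Neither was called in limma's fit with a single prior variance for all genes (0.167 and 0.238), nor SOX2 by DESeq2 (0.099). Neither NANOG nor SOX2 was called leaving out WT replicate 1 or WT replicate 2. Of the 6 neuroectoderm markers tested, 6 were lower in MEK5DD cells, where the sum over the 7 listed was 1623 and 1567, against 3851 and 3847 in WT cells. PAX6 was below the filter on low values and went the other way, at 6.36 and 5.98 in MEK5DD cells, against 1.76 and 3.12 in WT cells. LHX2 was not among the listed genes. Of 4 mesoderm markers 1 was called higher, and their sum was 269 and 290.0 in MEK5DD cells and 189 and 175 in WT cells. Of 2 endoderm markers 1 was called higher, with sums between 22.7 and 25.9 in all 4 libraries. Of 3 fibroblast markers 2 were called higher, with sums of 8359 and 8038 in MEK5DD cells and 7026 and 6941 in WT cells. Most of this sum was THY1, which was not called, at 6214 and 6072 in MEK5DD cells, against 5775 and 5703.5 in WT cells. The called COL1A1 and COL1A2 rose 1.55-fold and 1.68-fold. Of 4 tested trophoblast or amnion markers 1 was called higher and 3 lower. The 5 listed summed to 269.9 and 285 in MEK5DD cells and 448 and 485 in WT cells. Most of this sum was GABRP, called lower, at 154 and 174 in MEK5DD cells, against 295 and 337 in WT cells. GATA3, called higher, had 39.1 and 35.9 in MEK5DD cells, against 7.05 and 15.6 in WT cells. TFAP2A, below the filter, had 9.09 and 14.0 in MEK5DD cells, against 6.17 and 2.08 in WT cells. TBXT, MESP1, SOX17, FOXA2, GATA6, COL3A1, LUM, DCN and CGA were not among the listed genes. The part of these markers in the results below was not tested.

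All 3 secreted ligand genes of the set were higher in MEK5DD cells, and the inside-cell genes FGF12 and FGF13 were lower. Among the receptors FGFR1 was lower, FGFR3 and FGFR4 were higher, and FGFR2 did not pass the test. In all, 5 of the 10 genes rose and 3 fell at an adjusted p of 0.05 in limma's test. Over all 15721 genes tested the test called 14.2%, made up of 7.69% called higher and 6.47% called lower. The values of the groups did not overlap in 10 of the 10 genes, as in 56.2% of all genes tested. The median log2 fold change of the 10 genes was 0.19, beside -0.0023 over all genes tested. The number called higher was 2 without WT replicate 1 and 3 without WT replicate 2, and the number called lower was 2 in both fits. FGF4, FGF8, FGF12 and FGFR1 passed in each of the 4 fits that left out 1 library. In these bulk samples, fewer cells of a type and less RNA per cell cannot be told apart. No label tells whether the replicates were separate cultures, and each p-value here speaks only of library-to-library spread, possibly technical. The trend-free fit named below is limma with a single prior variance for all genes.

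**Figure D1:**
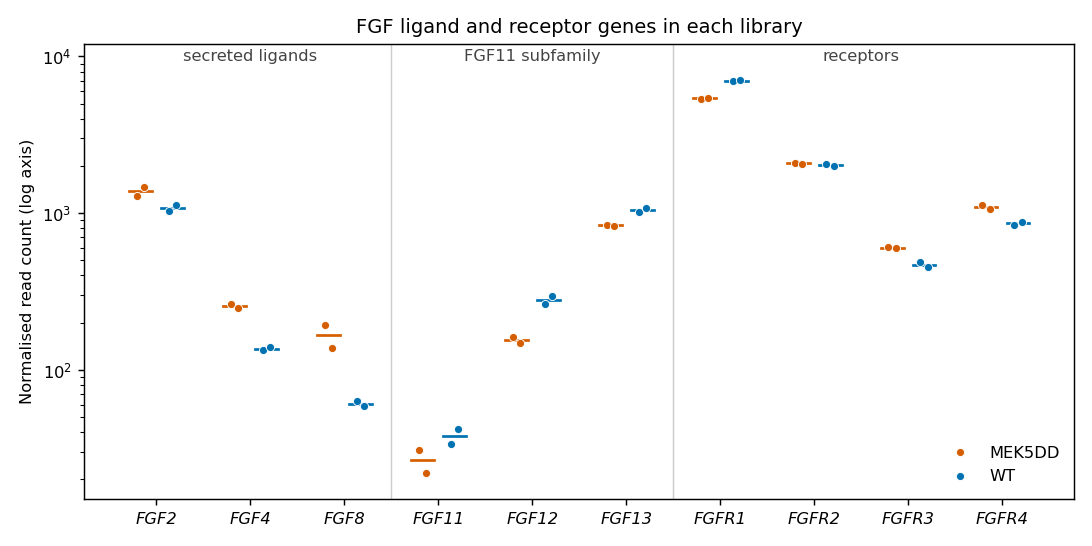
Normalised read count on a log axis for each of the 10 genes, with 1 point per library and a bar at the mean of each group (MEK5DD left, WT right). FGF8 shows the widest gap between groups, at 194 and 139 in MEK5DD against 63.4 and 58.3 in WT, and FGFR2 the narrowest.

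FGF8 changed the most of the 10 genes. It lies on chromosome 10 from 101770130 to 101780369 (GRCh38, minus strand). Its normalised read count was 194 and 139 in MEK5DD cells, against 63.4 and 58.3 in WT cells. Both MEK5DD libraries were above both WT libraries, and the MEK5DD pair was itself spread. Behind these values stood 214 and 139 reads in MEK5DD cells and 72 and 56 reads in WT cells. The exact 95% Poisson intervals of the MEK5DD reads were 186 to 245 and 117 to 164, which do not overlap and cover counting error only. FGF8 rose 2.67-fold (log2 fold change 1.42, SE 0.19, adjusted p = 0.000373), with a log2 fold change of 1.17 without MEK5DD replicate 1 and 1.66 without MEK5DD replicate 2. In the trend-free fit it narrowly missed the threshold (adjusted p = 0.0544).

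FGF4, a ligand gene of pluripotent cells, lies on chromosome 11 from 69771016 to 69775403 (minus strand). Its count was 264 and 246 in MEK5DD cells, against 133 and 139.6 in WT cells. The groups were well apart and each pair was close. FGF4 rose 1.86-fold (log2 fold change 0.90, SE 0.12, adjusted p = 0.00054), and it passed under each of the 14 alternatives tried. The nearest listed protein-coding gene toward lower coordinates is FGF19, 66.4 kb away on the same strand, a ligand gene that acts as a hormone in the adult gut and liver. FGF19 had 784 and 675 in MEK5DD cells, against 806 and 772 in WT cells, with overlapping groups (log2 fold change -0.12, SE 0.09, adjusted p = 0.448). Without MEK5DD replicate 1 the fall of FGF19 passed the test (adjusted p = 0.0249).

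FGF2, the ligand also supplied by the medium, had the highest per-kilobase level of the 6 ligand genes of the set. It lies on chromosome 4 from 122826708 to 122898236 (plus strand). Its count was 1288 and 1475 in MEK5DD cells, against 1038 and 1128 in WT cells. FGF2 rose 1.27-fold (log2 fold change 0.35, SE 0.08, adjusted p = 0.0166). That rise was smaller than those of FGF4 and FGF8, and it was not called leaving out WT replicate 1 (adjusted p = 0.207) or in the trend-free fit (adjusted p = 0.182). FGF2 overlaps NUDT6 on the opposite strand, which had 48.2 and 43.9 in MEK5DD cells, against 47.6 and 53.1 in WT cells. The strand setting of the counting is not given in these sources.

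FGF12 had the largest fall of the 10 genes. It lies on chromosome 3 from 192139395 to 192767764 (minus strand). Its count was 161 and 149 in MEK5DD cells, against 263 and 297 in WT cells. The mean in MEK5DD cells was 55.2% of the WT mean, and each MEK5DD library was far below each WT library (log2 fold change -0.85, SE 0.12, adjusted p = 0.000773). FGF12 passed under each of the 14 alternatives, narrowly so in the trend-free fit (adjusted p = 0.0497). The antisense genes FGF12-AS2 and FGF12-AS3 that overlap it had counts of at most 7.29 in any library.

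FGF13, on chromosome X from 138614731 to 139222777 (minus strand), fell less than FGF12. Its count was 845 and 833 in MEK5DD cells, against 1012 and 1071 in WT cells (log2 fold change -0.31, SE 0.08, adjusted p = 0.0179). The groups were apart, yet FGF13 was not called leaving out WT replicate 1 (adjusted p = 0.108) or WT replicate 2 (0.295), or in the trend-free fit (0.136). Its antisense gene FGF13-AS1 had a count of at most 30.9 in any library.

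FGF11, the least abundant of the 10 genes, did not pass the test. Its count was 30.9 and 21.9 in MEK5DD cells, against 33.5 and 41.7 in WT cells (log2 fold change -0.50, SE 0.29, adjusted p = 0.281). These rest on 34 and 22 reads in MEK5DD cells and 38 and 40 reads in WT cells. The 95% interval of its log2 fold change, -1.13 to 0.12, includes no change and also includes the fall of FGF12. FGF11 lies on chromosome 17 from 7438273 to 7444937 (plus strand). It starts 0.593 kb after TMEM102 and ends 0.123 kb before CHRNB1, both on the same strand. TMEM102 had 106 and 116 in MEK5DD cells, against 114.5 and 122 in WT cells. Reads running between FGF11 and these neighbours cannot be told apart at this resolution.

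**Figure D2:**
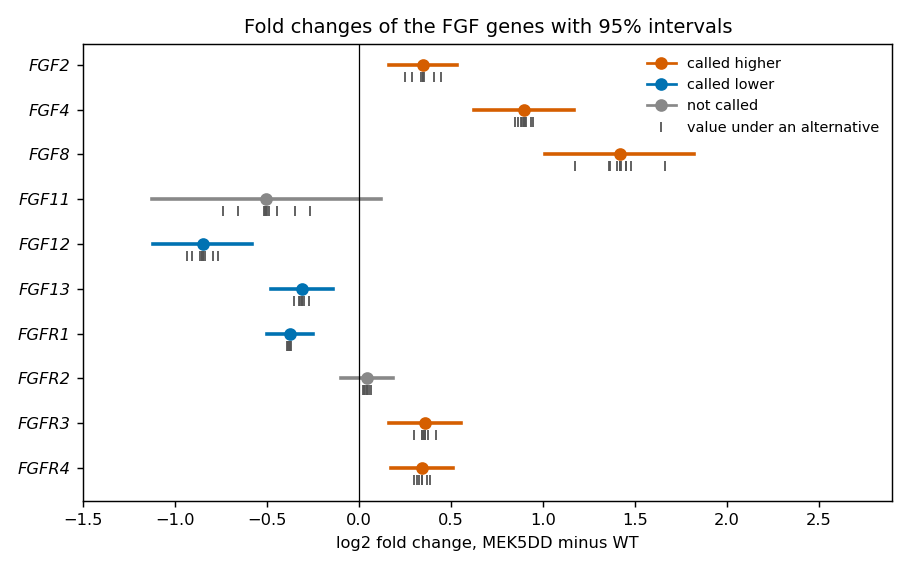
Log2 fold change of MEK5DD minus WT for each gene (dot) with its 95% interval from limma (line), and the value under each alternative as ticks below it. FGF8, FGF4 and FGF12 lie farthest from 0, the interval of FGF11 spans -1.13 to 0.12, and no gene changes sign under any alternative.

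FGFR1 was the most abundant receptor gene in both groups and the receptor gene that fell. It lies on chromosome 8 and encodes the main receptor for FGF2 in many mesenchymal and stem cells. Its count was 5385 and 5388 in MEK5DD cells, against 6948 and 7048 in WT cells. The pairs were tight and far apart, with a mean in MEK5DD cells at 77.0% of the WT mean (log2 fold change -0.38, SE 0.06, adjusted p = 0.00102). The call held without each library in turn but not in the trend-free fit (adjusted p = 0.0933). LETM2, which overlaps FGFR1 on the opposite strand, had counts of 45.4 and 25.9 in MEK5DD cells, against 26.4 and 31.2 in WT cells.

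FGFR3 and FGFR4 rose by similar amounts. FGFR3, a receptor known for restraining bone growth, lies on chromosome 4 from 1793293 to 1808872 (plus strand). Its count was 608 and 595 in MEK5DD cells, against 489 and 449.9 in WT cells, 1.28-fold higher in MEK5DD (log2 difference 0.36, SE 0.09, adjusted p = 0.0194). FGFR4, the receptor for FGF19 in liver, lies on chromosome 5 from 177086886 to 177098144 (plus strand). Its count was 1126 and 1060.5 in MEK5DD cells, against 845 and 879 in WT cells, 1.27-fold higher in MEK5DD (log2 difference 0.34, SE 0.08, adjusted p = 0.0113). The groups of both genes were apart. FGFR3 was not called leaving out WT replicate 1 (adjusted p = 0.0653) or WT replicate 2 (0.272), in the trend-free fit (0.123) or by DESeq2 (0.0672). FGFR4 was not called leaving out WT replicate 1 (adjusted p = 0.169) or WT replicate 2 (0.0799), or in the trend-free fit (0.124).

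FGFR2 did not pass the test. It lies on chromosome 10 from 121478334 to 121598458 (minus strand), and its splice forms bind different ligands in epithelium and mesenchyme. Its count was 2091 and 2064 in MEK5DD cells, against 2043 and 1988 in WT cells. The log2 fold change was 0.04 (SE 0.07, adjusted p = 0.718), with a 95% interval of -0.10 to 0.19. Gene counts do not separate the splice forms of any receptor.

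The make-up of the receptor transcripts differed between the groups. Per kilobase of merged exons, the normalised level in MEK5DD cells averaged 389 for FGFR1, 274 for FGFR2, 226 for FGFR4 and 124 for FGFR3. The same per-kilobase levels in WT cells averaged 506, 266, 178 and 96.8. The order of the receptors was the same in both groups, and no neighbours in that order overlapped in any library. FGFR1 made up 38.4% ± 0.54 of the summed per-kilobase receptor level in MEK5DD cells and 48.3% ± 0.52 in WT cells (SD, n = 2 each). FGFR4 made up 22.8% and 21.9% in MEK5DD cells, against 16.7% and 17.4% in WT cells, and FGFR3 12.2% ± 0.019 against 9.25% ± 0.54. With 2 libraries a group, the exact two-sided permutation test on a share gives p = 0.333 at the least, as it did for each of these. As a share of plain normalised counts FGFR1 had 58.8% in MEK5DD cells and 67.6% in WT cells. The merged exons come from all transcripts of GENCODE v29, so a gene with many transcript forms, such as FGFR1 with 13.84 kb, has its level understated. Within each library FGFR1 had 4.78 and 5.08 times the normalised count of FGFR4 in MEK5DD cells, against 8.23 and 8.02 times in WT cells.

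**Figure D3:**
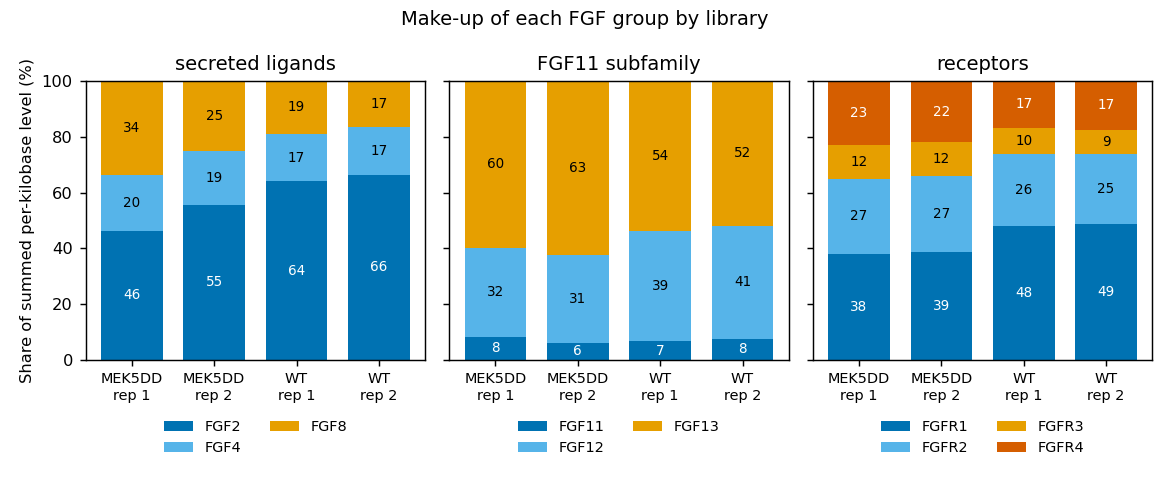
Share of the summed per-kilobase level, in percent, that each gene took within its gene group, with 1 bar per library. The gene groups are the secreted ligands of the set (FGF2, FGF4 and FGF8), the FGF11 subfamily and the receptors. FGFR1 takes a smaller part of the receptor bars in both MEK5DD libraries (38.0% and 38.8%) than in both WT libraries (47.9% and 48.7%), and FGF2 a smaller part of the secreted ligand bars.

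The order of the 6 ligand genes of the set by level differed too. In MEK5DD cells the per-kilobase level averaged 204 for FGF2, 119 for FGF8, 78.8 for FGF4, 40.6 for FGF13, 21.0 for FGF12 and 4.75 for FGF11. In WT cells it averaged 159.9 for FGF2, 50.4 for FGF13, 43.4 for FGF8, 42.2 for FGF4, 38.1 for FGF12 and 6.75 for FGF11. FGF8 and FGF4 overlapped in WT cells, where FGF8 had per-kilobase levels of 45.2 and 41.6 and FGF4 of 41.1 and 43.2. In both MEK5DD libraries the per-kilobase level of FGF8 was above that of FGF4, and both were above that of FGF13. This order rests on the merged exon lengths of 1.4 kb for FGF8, 3.23 kb for FGF4 and 20.68 kb for FGF13, and in plain normalised counts it was reversed in both MEK5DD libraries. Of the summed per-kilobase level of FGF2, FGF4 and FGF8, the secreted ligands of the set, FGF2 made up 50.9% ± 6.4 in MEK5DD cells. Its share in WT cells was 65.1% ± 1.6 (SD, n = 2 each). As a share of plain normalised counts FGF2 had 76.5% in MEK5DD cells and 84.6% in WT cells, a smaller difference. The summed per-kilobase level of these 3 genes was 410.3 and 393 in MEK5DD cells, against 239.6 and 251 in WT cells. FGF19, a secreted ligand outside the set, is in neither the order nor the sum. Its per-kilobase level was 320 and 276 in MEK5DD cells, against 329 and 315 in WT cells, above FGF2 in every library.

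Promoter windows are shown for FGF2, FGFR3 and FGFR4, which rose, and for FGF12, which fell the most, so that the stretches around these starts can be read beside the values above. The windows are from RefSeq (GRCh38.p14), cover 250 bases before to 50 bases after the start, and run 5′ to 3′ on the gene's strand. RefSeq windows were matched for 7 of the 10 genes, 16 windows in all, and none was matched for FGF4, FGF8 and FGFR1. Capitals mark matches on either strand to 3 motifs of factors linked to MAPK signalling, the AP-1 motif TGANTCA, the KLF motif CACNCCC and the MEF2 consensus, whose letters were chosen after these windows had been seen. The windows are chr4:122826581-122826880 (plus) for FGF2, chr4:1793043-1793342 (plus) for FGFR3, chr5:177086665-177086964 (plus) for FGFR4 and chr3:192727492-192727791 (minus) for FGF12.
FGF2: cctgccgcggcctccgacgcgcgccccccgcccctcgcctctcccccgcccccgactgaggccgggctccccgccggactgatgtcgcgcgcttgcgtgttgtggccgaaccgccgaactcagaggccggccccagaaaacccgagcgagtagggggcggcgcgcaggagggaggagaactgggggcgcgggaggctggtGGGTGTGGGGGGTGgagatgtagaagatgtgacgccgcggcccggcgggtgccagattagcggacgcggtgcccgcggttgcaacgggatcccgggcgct
FGFR3: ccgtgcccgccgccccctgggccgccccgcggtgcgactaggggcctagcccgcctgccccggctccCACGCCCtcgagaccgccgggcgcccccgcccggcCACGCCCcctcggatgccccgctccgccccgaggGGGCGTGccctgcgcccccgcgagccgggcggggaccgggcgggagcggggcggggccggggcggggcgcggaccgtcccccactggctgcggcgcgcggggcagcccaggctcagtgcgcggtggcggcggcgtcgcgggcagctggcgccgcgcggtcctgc
FGFR4: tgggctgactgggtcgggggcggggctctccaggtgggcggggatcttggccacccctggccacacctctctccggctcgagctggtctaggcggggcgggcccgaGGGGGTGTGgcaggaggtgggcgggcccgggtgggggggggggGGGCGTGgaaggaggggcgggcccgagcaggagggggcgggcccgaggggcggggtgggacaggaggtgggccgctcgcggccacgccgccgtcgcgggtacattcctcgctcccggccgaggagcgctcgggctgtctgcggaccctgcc
FGF12: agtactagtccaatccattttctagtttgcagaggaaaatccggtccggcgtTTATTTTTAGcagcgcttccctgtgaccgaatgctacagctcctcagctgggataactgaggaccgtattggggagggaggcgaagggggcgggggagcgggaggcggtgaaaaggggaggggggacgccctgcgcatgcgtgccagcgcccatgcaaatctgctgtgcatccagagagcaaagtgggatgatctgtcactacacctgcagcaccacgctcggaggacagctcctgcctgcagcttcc

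The KLF motif had 2 matches in the FGF2 window and 3 each in the windows of FGFR3 and FGFR4. In FGFR4 the first pair of matches overlap. The KLF motif occurs in 30.0% of all 35116 promoter windows of 300 bases. Over the 7 genes 6 of 16 windows held a KLF match, near that share. Besides the 3 windows shown these were 2 of the 5 windows of FGFR2 and 1 of the 3 windows of FGF11, while the windows of FGF12 and FGF13 and the second window of FGFR4 held none. The FGF12 window shown holds 1 match to the MEF2 consensus, 198 bases before the start, and the other FGF12 window holds none. Over the 7 genes 1 of 16 windows held a MEF2 match, beside 2.99% of all windows. AP-1 matches were found in 2 of the 16 windows, 1 of the 2 FGF13 windows and 1 of the 3 FGF11 windows, beside 7.71% of all windows. A match describes the letters of the window and does not show that a factor binds there.

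Genes whose values over the 4 libraries lay nearest to those of FGF8 and FGF4 were sought among 10786 other genes with a mean count of at least 100. The measure was the Euclidean distance between log2 values, each gene centred on its own mean. Nearest to FGF8 were HERC3 (distance 0.14) and PAM (distance 0.20), with HERC3 at 166 and 132 in MEK5DD cells, against 57.3 and 49.0 in WT cells. Nearest to FGF4 were CAVIN1 (distance 0.020) and PDZD4 (distance 0.036), with CAVIN1 at 1541 and 1446 in MEK5DD cells, against 794 and 822 in WT cells. The likeness rests on 4 libraries.

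Among the other FGF pathway genes, 8 of 78 tested rose and 16 fell, which is 30.8% called beside 14.2% of all genes tested. Their median log2 fold change was -0.04. The number called higher was 3 without WT replicate 1 and 3 without WT replicate 2, and the number called lower was 10 without WT replicate 2 and 25 without MEK5DD replicate 2. They came from 7 lists with 101 genes, of which 15 were not among the listed genes and 8 were below the filter. Every listed gene had a read in each library, so a gene silent in 1 group would not be seen here.

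Of the other FGF ligand genes 4 were tested and 0 passed in limma's test, also with edgeR and with DESeq2, while 2 had an unadjusted p under 0.05. FGF19 is given above. FGF18 had 40.9 and 23.9 in MEK5DD cells, against 29.1 and 18.7 in WT cells, with overlapping groups. Of coreceptor and FGF-binding genes 2 of 5 tested rose and 2 fell (median log2 fold change 0.29). FGFBP3, which encodes a carrier protein that binds FGFs, had 897 and 809 in MEK5DD cells, against 1748 and 1698 in WT cells. Its mean was 49.5% of the WT mean (log2 fold change -1.02, SE 0.08, adjusted p = 4.5e-06). ANOS1, which encodes a matrix protein that modulates FGFR1 signalling, had 746 and 848 in MEK5DD cells, against 1137 and 1183 in WT cells (log2 fold change -0.54, SE 0.08, adjusted p = 0.00112), though not called in the trend-free fit (adjusted p = 0.085). FLRT2, of a family of FGFR-binding membrane proteins, had 67.2 and 67.8 in MEK5DD cells, against 27.3 and 33.3 in WT cells, a 2.20-fold rise (adjusted p = 0.00579). FGFRL1, a receptor without a kinase domain chosen here after its values were seen, rose 1.22-fold (adjusted p = 0.0407). It was not called leaving out WT replicate 1 (adjusted p = 0.223) or WT replicate 2 (0.362), in the trend-free fit (0.146) or by DESeq2 (0.153).

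Of heparan sulfate core protein and enzyme genes 1 of 20 tested rose and 6 fell (median log2 fold change -0.04). HS6ST2, which encodes an enzyme that adds sulfate at the 6-O position, had 83.6 and 72.8 in MEK5DD cells, against 166 and 171 in WT cells (log2 fold change -1.10, SE 0.15, adjusted p = 0.000548). GPC3, which encodes a membrane-anchored core protein, had 399 and 324 in MEK5DD cells, against 644 and 710.3 in WT cells (log2 fold change -0.91, SE 0.11, adjusted p = 0.000208). SULF2, which encodes a sulfatase that takes sulfate off 6-O positions, had 374 and 408 in MEK5DD cells, against 595 and 669.7 in WT cells (log2 fold change -0.69, SE 0.10, adjusted p = 0.000612). The fellow sulfatase gene SULF1, chosen after its values were seen, fell by 0.58 on the log2 scale (adjusted p = 0.00071). In the trend-free fit GPC3 (adjusted p = 0.0639), SULF2 (adjusted p = 0.0637) and SULF1 (adjusted p = 0.0634) were not called. The member that rose was the core protein gene GPC6 (1.28-fold, adjusted p = 0.00763), also chosen after its values were seen, which was not called leaving out WT replicate 2 (adjusted p = 0.137) or in the trend-free fit (0.142).

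Of the FGFR adaptor and RAS-ERK chain genes, 1 of 20 rose and 0 fell. The median log2 fold change was 0.00015. Feedback and output genes of the pathway moved both ways, with 4 of 14 higher and 5 lower (median log2 fold change -0.02). The phosphatase gene DUSP4 had 269.9 and 312 in MEK5DD cells, against 587 and 599 in WT cells (log2 fold change -1.03, SE 0.10, adjusted p = 4.0e-05). The Sprouty gene SPRY3 fell by 0.80 on the log2 scale (adjusted p = 0.00128). SPRED3, an inhibitor gene of the same superfamily, fell by 0.78 on the log2 scale (adjusted p = 0.0317). It was not called leaving out WT replicate 1 (adjusted p = 0.128) or WT replicate 2 (0.171), or by DESeq2 (0.191). In the other direction DUSP5, a nuclear ERK phosphatase gene chosen after its values were seen, had 2226 and 2044 in MEK5DD cells, against 1297 and 1260 in WT cells, a 1.67-fold rise (adjusted p = 3.3e-05).

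Of 9 tested partner genes of the FGF11 subfamily 0 rose and 1 fell (median log2 fold change -0.27). This was SCN8A, a sodium channel gene, at 309 and 407 in MEK5DD cells, against 541 and 552 in WT cells (log2 fold change -0.62, SE 0.12, adjusted p = 0.00501), not called in the trend-free fit (adjusted p = 0.133). Of 6 genes of splicing factors that act on FGFR transcripts or belong to their families 0 rose and 2 fell (median log2 fold change -0.08). PTBP2, a neuronal splicing regulator gene, had 669.7 and 683 in MEK5DD cells, against 917 and 1003 in WT cells (log2 fold change -0.50, SE 0.08, adjusted p = 0.00158), not called in the trend-free fit (adjusted p = 0.0775). RBFOX1, another such gene, had 12.7 and 7.97 in MEK5DD cells, against 29.1 and 29.2 in WT cells (adjusted p = 0.0213). It was not called leaving out WT replicate 1 (adjusted p = 0.098) or WT replicate 2 (0.108), in the trend-free fit (0.0686) or by DESeq2 (0.109). ESRP1 and ESRP2, which favour the epithelial splice forms and are named here with their values known, did not pass, with an adjusted p of 0.0533 and 0.789. ESRP1 was called higher among genes with a mean count of 50 or more (adjusted p = 0.0472) and leaving out MEK5DD replicate 1 (0.00079) or MEK5DD replicate 2 (0.00066).

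**Figure D4:**
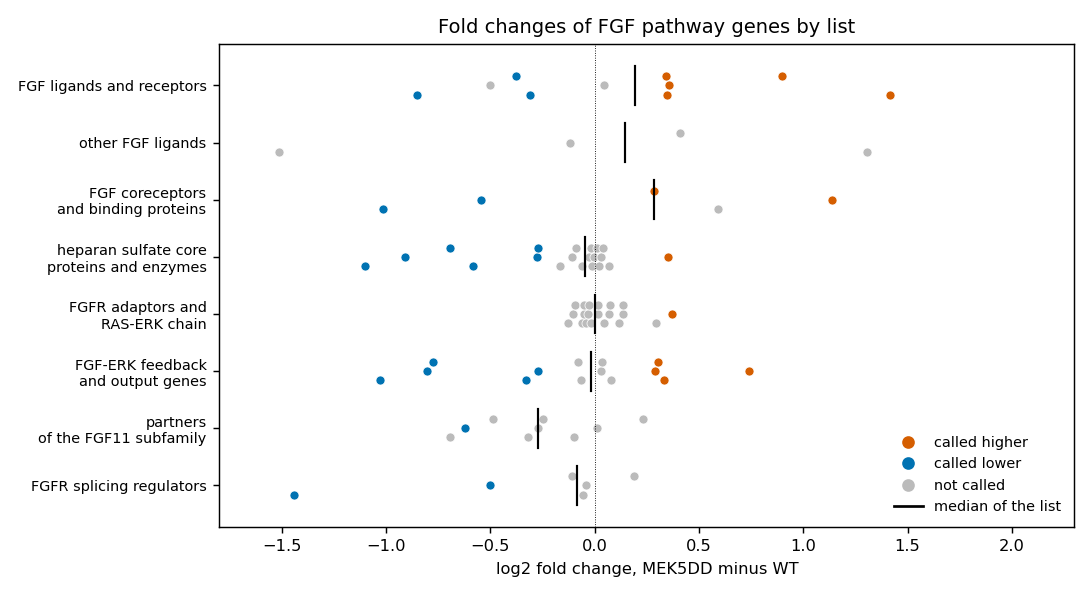
Log2 fold change of MEK5DD minus WT for each tested gene of the FGF ligand and receptor set and of the 7 pathway lists, with 1 dot per gene, coloured by limma's call at an adjusted p of 0.05, and a vertical bar at the median of each list. The adaptor and RAS-ERK chain gathers around 0 (1 of 20 called), while the heparan sulfate list has 6 genes lower and 1 higher.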

How the data were processed

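Gene expression was measured by poly(A) RNA sequencing of 2 MEK5DD and 2 WT libraries. The deposited values are a signal, gene counts that the authors normalised, and the values themselves show that each library was divided by its own size factor. The submitters' processing notes list DESeq2 1.26.0, featureCounts 1.5.3, STAR, Trimmomatic 0.36 and the build hg38, without saying what each did. In each library 100% of values were whole multiples of the smallest value within 0.001, and dividing by it gave recovered reads. In MEK5DD replicate 2 that value, 0.997, is close to 1. No listed gene was without a read in any library.

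Values were tested as log2(value + 1) with limma 3.58.1 (R 4.3.3), letting the prior variance follow the mean. Genes reaching 10 in 2 or more libraries were kept, 15721 in all, and two-sided p-values were Benjamini-Hochberg adjusted across them. The added 1 makes folds of low genes too small. A called gene has an adjusted p under 0.05. No batch is given in the labels. Alternatives were pseudocounts, filters, scalings, a trend-free fit, the replicate number as a block, fits on 3 of the 4 libraries, and count tests on recovered reads with edgeR 4.0.16 and DESeq2 1.42.0. EdgeR called 1248 genes higher and 1058 lower. A fit without 1 library assumes that the lone sample varies like the other group. The procedure was tested on simulated data. Its planted changes were larger than those of FGF2, FGF13, FGFR1, FGFR3 and FGFR4, so the simulation does not cover changes that small. Gene positions and exon lengths came from GENCODE v29 (GRCh38), in which 97.8% of symbols were found.

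The 10 genes, the pathway and marker lists and the genes to name were chosen with earlier results of these data known. Of each list up to 3 called genes with the largest change are named, or the 2 most abundant where none was called. Values of some single genes of these lists are not reported here.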

Additional observations from a re-analysis of the deposited data

How the results depend on the processing

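All 10 FGF genes kept the sign of their fold change under every one of the 14 alternatives that gave a value (FGF11 was below the stricter filter, a mean of 50), and FGF4 and FGF12 kept their call under each. In the trend-free fit 1 FGF gene was called higher and 1 lower, 2 and 5 genes of the pathway lists, and 249 and 190 of all genes. With DESeq2 769 of all genes were called higher and 589 lower. With 1 library left out, the FGF genes called higher ranged from 2 to 5 and those called lower from 2 to 3, the pathway genes called higher from 3 to 12 and lower from 10 to 25, and all genes called higher from 668 to 2383 and lower from 482 to 2246. No label ties a replicate number to a culture or day. Deviations of same-numbered libraries had a correlation of 0.0469 over 15721 genes. With 2 libraries a group, this value cannot tell whether the numbers pair the samples weakly. With the replicate block 5 FGF genes were called higher and 3 lower, 10 and 19 pathway genes, and 1733 of all genes higher and 1616 lower, beside 1209 and 1017 in limma's test without it, and ESRP1 was called (adjusted p = 0.0168). TMM and upper-quartile factors moved the median of all genes by at most 0.0145 on the log2 scale and changed no call of the 10 genes. From per-kilobase levels to plain counts 8 of 10 share differences moved by more than the spread between replicates. Depth limits FGF11, with 22 to 40 reads a library. The cause of the changes between alternatives was not tested.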

Other observations

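The genes beside the FGF genes were read as well, chosen after their values were seen. Of the 20 nearest listed protein-coding neighbours, 1 on each side of each FGF gene, 4 were called, beside 14.2% of all genes tested, 2 in the direction of a called FGF gene and 2 in the opposite direction. NPM3, a histone chaperone gene that ends 0.955 kb before the start of FGF8 on the same strand, rose with it (log2 fold change 0.50, SE 0.09, adjusted p = 0.00358 from limma), though not in the trend-free fit (adjusted p = 0.141). Reads that run on from NPM3 into FGF8 could not be separated in gene counts.

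Histone methyltransferase genes of the NSD family lie near 3 of the receptor genes. NSD1, 34.9 kb from FGFR4, had 3394 and 3792 in MEK5DD cells, against 4430.3 and 4411 in WT cells (log2 fold change -0.30, adjusted p = 0.0113 from limma), so it fell where FGFR4 rose. NSD2, 62.6 kb from FGFR3, had 2934 and 2872 in MEK5DD cells, against 3778 and 3651 in WT cells (log2 fold change -0.36, adjusted p = 0.0024). It fell where FGFR3 rose. Nearer to FGFR3 lie LETM1 (2.61 kb) and TACC3 (48.1 kb), which were not called (adjusted p = 0.445 and 0.999 from limma). NSD3, 17.9 kb from FGFR1, had 1317 and 1729 in MEK5DD cells, against 1477 and 1606 in WT cells, with overlapping groups (adjusted p = 0.891). NSD1 was not called leaving out WT replicate 1 (adjusted p = 0.132) or WT replicate 2 (0.125), nor NSD2 leaving out WT replicate 1 (0.0833). Neither was called in the trend-free fit (adjusted p = 0.180 for NSD1 and 0.106 for NSD2).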
